A study of Homo sapiens with 10 samples.

Results

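The contractile and focal adhesion cytoskeleton was followed through 42 genes, found by their symbol among the 52402 gene symbols of the count files. They were the transcription factor SRF, 10 thin-filament genes, 6 myosin II genes, 2 filamins, 11 adhesion plaque genes, 8 genes of actin nucleation, the 3 ERM genes (ezrin, radixin and moesin) and the phosphatase PPM1F. All 42 passed the filter on low counts, and none of the symbols was repeated in the files.

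The cells were BEAS2B, an immortalized human bronchial epithelial line. They received a scrambled miRNA (miRcontrol), a mimic of miR-3124-5p (miR3124_mimic), a mimic of miR-200b-3p (miR200b_mimic), an inhibitor of miR-92b (miR92b_inhibitor) or the 3 miRNAs together (the 3-miRNA mixed group), with 2 libraries in each of the 5 groups. By the study's methods, each RNA was used at 50 nM and mRNA was sequenced from cells taken after 48 h. A mimic is a synthetic duplex that adds the miRNA, and an inhibitor is an oligonucleotide that binds the cell's own copy. The study's miRNA set holds miR-92b-5p, while the inhibitor is named only as one of miR-92b, so that both arms are considered below. The amount of each RNA in the mixture is not given in the sources used here. They do not say whether the libraries of a group came from separate transfections, so that p-values measure only the spread between these libraries, which may be technical.

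Non-muscle cells pull on their surroundings through bundles of actin, myosin II and tropomyosin that end in focal adhesions, where talin and vinculin join actin to integrins. SRF, together with its actin-sensing MRTF cofactors, switches on many genes of this apparatus. Formins and WAVE proteins start new actin filaments, ERM proteins tie actin to the plasma membrane, and miR-200 family members are known for holding epithelial cells in their epithelial state. An miRNA lowers mRNAs mainly through its seed, bases 2 to 8, which pairs with a complementary word in the 3′UTR.

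The mature miRNAs are shown first, since the seed of each sets which 7-base word was searched in the 3′UTRs. The sequences are from RefSeq (GRCh38.p14), written 5′ to 3′ with the seed in capitals. Both arms of miR-92b are given because the inhibited arm was not named. The 4 seeds differ from each other.
hsa-miR-3124-5p: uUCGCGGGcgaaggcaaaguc
hsa-miR-200b-3p: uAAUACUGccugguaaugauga
hsa-miR-92b-5p: aGGGACGGgacgcggugcagug
hsa-miR-92b-3p: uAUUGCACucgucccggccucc

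The word CAGTATT, which pairs with the miR-200b-3p seed, lay in the 3′UTR of 12 of the 42 genes (28.6%), against 19.5% of the 12242 tested genes with a 3′UTR in GENCODE v29 (longest coding transcript, GRCh38). FHOD1, PPM1F, MSN and WASF3 are described in the literature as miR-200 targets, so that the genes are no neutral sample for this word. WASF3, WIPF1 and MSN held it 3 times, CNN3 and PPM1F 2 times, and SRF, CALD1, TLN2, ENAH, LIMA1, FHOD1 and RDX once. Windows of 22 bases from the 3 genes with the largest fall in miR200b_mimic among these 12, and from LIMA1, the 1 that rose, are shown in genome coordinates of the sense strand, with the word in capitals.
PPM1F, chr22:21922366-21922387, minus strand: gtctaattccgaagCAGTATTc
PPM1F, chr22:21922219-21922240, minus strand: ggaacctttttttgCAGTATTa
TLN2, chr15:62840888-62840909, plus strand: caacaaagaaaagtCAGTATTa
FHOD1, chr16:67229507-67229528, minus strand: agccatgccttgagCAGTATTa
LIMA1, chr12:50176068-50176089, minus strand: attgatttttatcaCAGTATTc

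The word CCCGCGA of miR-3124-5p lay in none of the 42 3′UTRs and in 76 of the 12242 (0.621%). CCGTCCC of miR-92b-5p lay in MYH9, VCL and DIAPH2. GTGCAAT of miR-92b-3p lay in the same 3 genes and in TPM4. A match is a string of letters and not a proven site, and the absence of one says only that these letters are not in this 3′UTR.

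Libraries held between 13587666 and 18503890 counts, and 14884 genes were tested. The pair of libraries in each group differed by more than counting error (chi-square per degree of freedom from 1.77 to 2.76), but for 41 of the genes their levels lay within 1.27-fold of each other in every group. The exception was CNN1, with at most 11 counts in any library. Levels are normalized CPM, read counts scaled to the size of the library, and a gene was called when its edgeR quasi-likelihood p, adjusted over all tested genes, was below 0.05.

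The label of the cells was compared with marker genes. In miRcontrol the epithelial keratins KRT7, KRT8 and KRT18 lay between 619 and 826 CPM and the mesenchymal genes VIM and FN1 between 3181 and 3894 CPM, while the epithelial genes CDH1 and EPCAM were at most at 0.458 CPM. The keratins KRT19 and KRT5 were lower there, at 7.94 to 8.47 and 0.119 to 0.229 CPM. Of the other mesenchymal markers, CDH2 was at 259 CPM and S100A4 at 0.114 to 0.179 CPM in miRcontrol. Of 6 smooth muscle markers, MYH11 had 0 counts in all libraries and DES and MYOCD at most 3, ACTA2 and LMOD1 reached at most 2.72 and 1.98 CPM, and SMTN lay between 94.3 and 171 CPM. The endothelial markers PECAM1, VWF and CDH5 summed to at most 4.78 CPM, and the leukocyte genes PTPRC and CD3E had at most 2 counts. Of the other leukocyte markers, CD14 was at 0.801 to 1.43 CPM in miRcontrol and 12.4 to 12.7 in miR3124_mimic, where CDH5 was at 2.49 to 4.03 CPM against 0.0572 to 0.0597 in miRcontrol, and CD68 lay between 17.3 and 40.7 CPM over all libraries. Their part in the results was not tested. ZEB1, a known miR-200 target, was at 62.9 to 63.3 CPM in miRcontrol and 25.6 to 25.9 in miR200b_mimic.

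Against miRcontrol, calls in both directions were common with the mimics, and falls prevailed with the inhibitor. In bulk RNA, a change in all cells and a change in some of them cannot be told apart. In miR3124_mimic, 20 of 42 rose and 13 fell, against 25.7% and 25.3% of all tested genes. In miR200b_mimic, 12 rose and 20 fell, against 21.4% and 19.1%. In miR92b_inhibitor, 1 rose and 28 fell, against 17.5% and 18.2%. In the 3-miRNA mixed group, 9 rose and 21 fell, against 21.5% and 21.1%. The share of 66.7% that fell in miR92b_inhibitor stood furthest from its background. Among genes at 10 CPM or more, where small changes are called more easily, 27 of 40 members (67.5%) fell there against 24.9% of 9268 genes. The genes were chosen with earlier results of these data known, so that a distance from the background is no independent result. At 10 CPM or more, 32.5% of members fell in miR3124_mimic against 34.9% of genes, and 47.5% rose against 30.1%. In miR200b_mimic 30% rose against 29%, and 45% fell against 24.7%. In the mixed group 22.5% rose and 50% fell, against 28.1% in each direction. The falls in miR3124_mimic and the rises in miR200b_mimic thus lay near this background. Median log2 fold changes over the 42 genes were 0.05, -0.11, -0.18 and -0.13 in the order of groups above, with the median of all tested genes within 0.01 of 0.

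**Figure D1:**
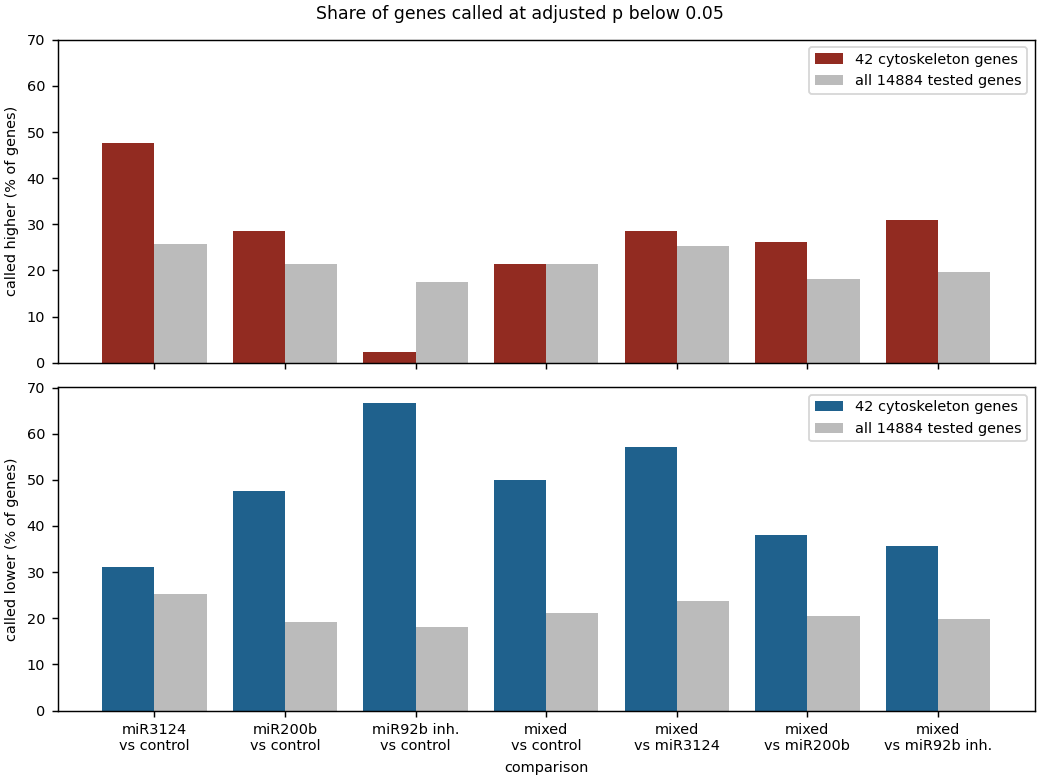
Share of genes (%) called higher (upper panel) and lower (lower panel) at an adjusted p below 0.05 in each of the 7 comparisons, for the 42 cytoskeleton genes (coloured) and all 14884 tested genes (grey). In miR92b_inhibitor against miRcontrol, 66.7% of the cytoskeleton genes fell and 2.38% rose.

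Most of these changes were small. With a 2-fold change required as well, miR3124_mimic had 1 gene higher (TAGLN) and 3 lower (TAGLN2, ZYX and EZR), against 5.37% and 2.75% of all genes. The miR200b_mimic group had 0 higher and 3 lower (CNN1, TLN2 and PPM1F), against 2.72% and 2.16%. In miR92b_inhibitor 0 of 42 passed in either direction, against 0.988% and 0.927%, and the mixed group had 0 higher and 1 lower (PPM1F), against 3.14% and 1.53%. The 28 falls in miR92b_inhibitor were thus all below 2-fold. The summed counts of the 42 genes made up 1.93% to 1.95% of each of its libraries against 2.17% to 2.18% in miRcontrol. The most abundant genes FLNA and MYH9 weigh most in this sum. Their means went from 4042 to 3381 CPM and from 3432 to 2794 CPM.

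**Figure D2:**
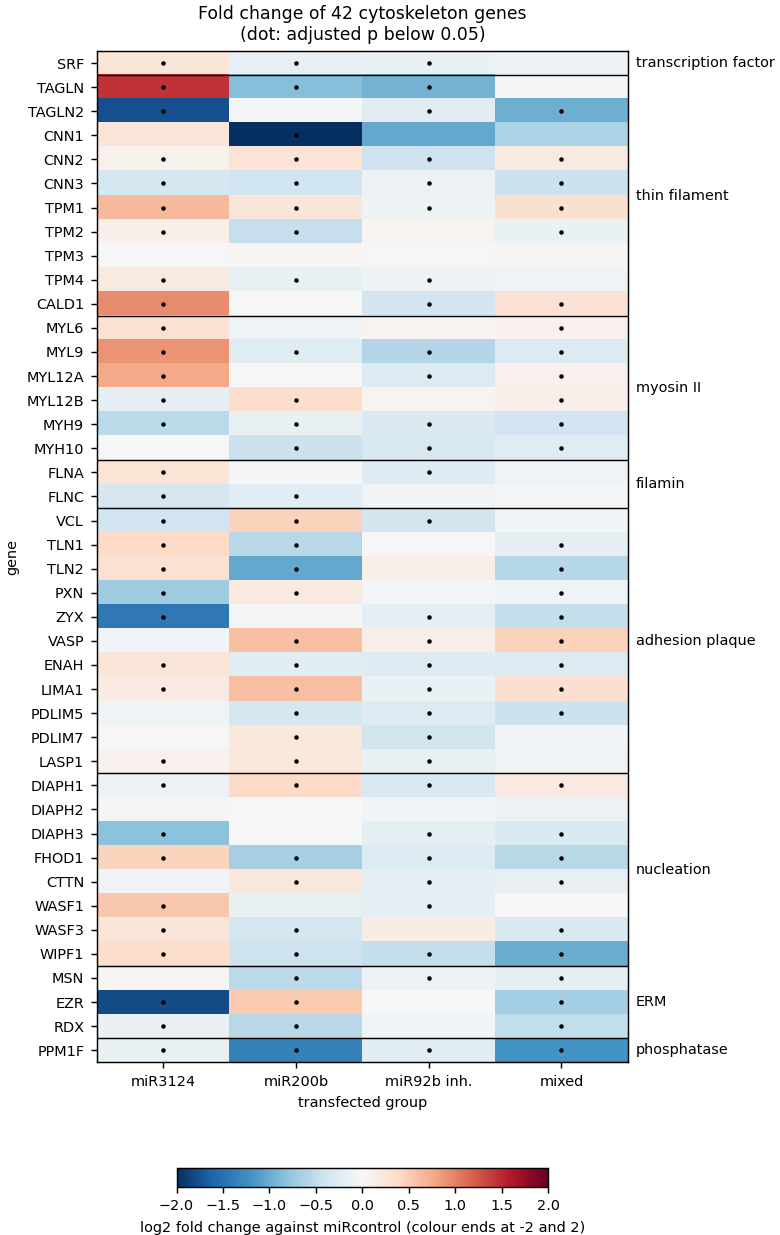
Log2 fold change against miRcontrol (colour) of the 42 genes (rows, grouped by role) in the 4 transfected groups (columns), with a dot where the adjusted p was below 0.05. TAGLN, TAGLN2, ZYX and EZR are the strongest colours in miR3124_mimic and PPM1F and CNN1 in miR200b_mimic, while miR92b_inhibitor is pale and mostly blue.

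SRF (chr6:43171299-43181507, GENCODE v29, GRCh38, as for all positions of genes here) rose slightly in miR3124_mimic. It stood at 97.6 and 92.5 CPM with miRcontrol, 114 and 111 with miR3124_mimic, 82.8 and 86.6 with miR200b_mimic, 89 and 85 with miR92b_inhibitor and 88.7 and 88.9 in the mixed group. Both miR3124_mimic libraries lay above all others. The log2 fold change was 0.24 ± 0.048 (SE, 2 libraries a group, as throughout; adjusted p = 3.72e-05) in miR3124_mimic, -0.16 ± 0.05 (adjusted p = 0.00719) in miR200b_mimic and -0.13 ± 0.049 (adjusted p = 0.0379) in miR92b_inhibitor. The last 2 calls were lost without miRcontrol replicate 1, with log2 fold changes of -0.12 and -0.09, and they were also lost without miR200b_mimic replicate 1 (-0.13) and miR92b_inhibitor replicate 2 (-0.09), respectively.

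Among the thin-filament genes, which coat or cross-link actin, 6 of 10 rose and 2 fell in miR3124_mimic, 2 rose and 5 fell in miR200b_mimic, 0 rose and 7 fell in miR92b_inhibitor, and 3 rose and 3 fell in the mixed group. Over all tested genes, 25.7% rose and 25.3% fell in miR3124_mimic, and 21.4% and 19.1% in miR200b_mimic. The shares were 17.5% and 18.2% in miR92b_inhibitor and 21.5% and 21.1% in the mixed group. They also stand beside the counts of the other roles below, each of few genes. The 2 transgelins, actin-bundling proteins, went opposite ways in miR3124_mimic. TAGLN (chr11:117199321-117204782), a classic SRF target, was at 57.5 and 54.3 CPM with miRcontrol and 151 and 154 with miR3124_mimic, a 2.73-fold rise (log2 1.45 ± 0.052, adjusted p = 8.99e-28). It was at 32.2 and 30.1 CPM in miR200b_mimic, 28.7 and 29.3 with miR92b_inhibitor and 55.4 and 55.3 in the mixed group. The miR200b_mimic and miR92b_inhibitor libraries lay below every other library, with log2 fold changes of -0.85 ± 0.065 (adjusted p = 2.5e-15) and -0.95 ± 0.064 (adjusted p = 1.34e-16). The mixed group overlapped miRcontrol (-0.02 ± 0.057, adjusted p = 0.851). TAGLN overlaps PCSK7 on the opposite strand, and whether counting used the strand is not given in the sources used here.

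TAGLN2 (chr1:159918107-159925732), its broadly expressed relative, fell 3.37-fold in miR3124_mimic, from 657 and 673 CPM to 203 and 193 (log2 -1.75 ± 0.039, adjusted p = 7.48e-36). It was at 664 and 645 CPM in miR200b_mimic, 581 and 554 with miR92b_inhibitor and 345 and 330.1 in the mixed group. The fall in the mixed group was -0.98 ± 0.037 on the log2 scale (adjusted p = 1.8e-26), while miR200b_mimic overlapped miRcontrol. Per kilobase of the longest coding transcript, TAGLN made up 5.64% to 6.09% of the transgelin level in miRcontrol and 35.6% to 37.2% in miR3124_mimic. The size of these shares depends on the transcript taken for length.

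The actin and myosin binding caldesmon gene CALD1 (chr7:134744252-134970728) and the tropomyosin gene TPM1 (chr15:63042632-63071915), whose products run along the filament, rose in miR3124_mimic. CALD1 was at 425 and 411 CPM with miRcontrol and 805 and 799.7 with miR3124_mimic, and TPM1 at 475 and 458 and 735 and 733. No miR3124_mimic library overlapped another group for either gene. The log2 fold changes were 0.94 ± 0.037 (adjusted p = 4.34e-26) and 0.65 ± 0.036 (adjusted p = 9.85e-21).

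CALD1 was at 437 and 399 CPM in miR200b_mimic, 324 and 317 with miR92b_inhibitor and 512 and 514 in the mixed group. It fell in miR92b_inhibitor (-0.38 ± 0.038 on the log2 scale, adjusted p = 2.74e-11) and rose in the mixed group (0.29 ± 0.037, adjusted p = 6.3e-09), while miR200b_mimic overlapped miRcontrol. TPM1 was at 567 and 540.1 CPM in miR200b_mimic, 447 and 426 with miR92b_inhibitor and 583 and 587 in the mixed group. It rose in miR200b_mimic (0.25 ± 0.036, adjusted p = 1.8e-07) and in the mixed group (0.33 ± 0.036, adjusted p = 1.34e-10).

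The largest changes of the other tropomyosins were smaller. TPM3 was called in none of the 4 comparisons, with log2 fold changes from 0.0036 to 0.04, and those of TPM2 and TPM4 ranged from -0.46 to 0.11 and from -0.15 to 0.17. TPM1 took 11.6% to 11.8% of the summed tropomyosin level per kilobase in miRcontrol and 16.2% in both miR3124_mimic libraries.

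Of the calponins, which bind actin and tropomyosin, the smooth muscle form CNN1 (chr19:11538717-11550323) was barely present. Its 2 libraries held 11 and 5 counts in miRcontrol and 1 each in miR200b_mimic. A floor of 3 counts per library in miR200b_mimic, 0.198 CPM, lay 2.34-fold below the miRcontrol mean of 0.464 CPM. In miRcontrol replicate 2 alone CNN1 was at 0.298 CPM, nearer to this floor. It was called in miR200b_mimic (adjusted p = 0.0233), but not without either library of miR200b_mimic or without miRcontrol replicate 1 (adjusted p = 0.0843 to 0.237). CNN3 fell in all 4 groups, with log2 fold changes from -0.43 to -0.12. CNN2 rose in miR200b_mimic (0.28) and fell in miR92b_inhibitor (-0.42).

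**Figure D3:**
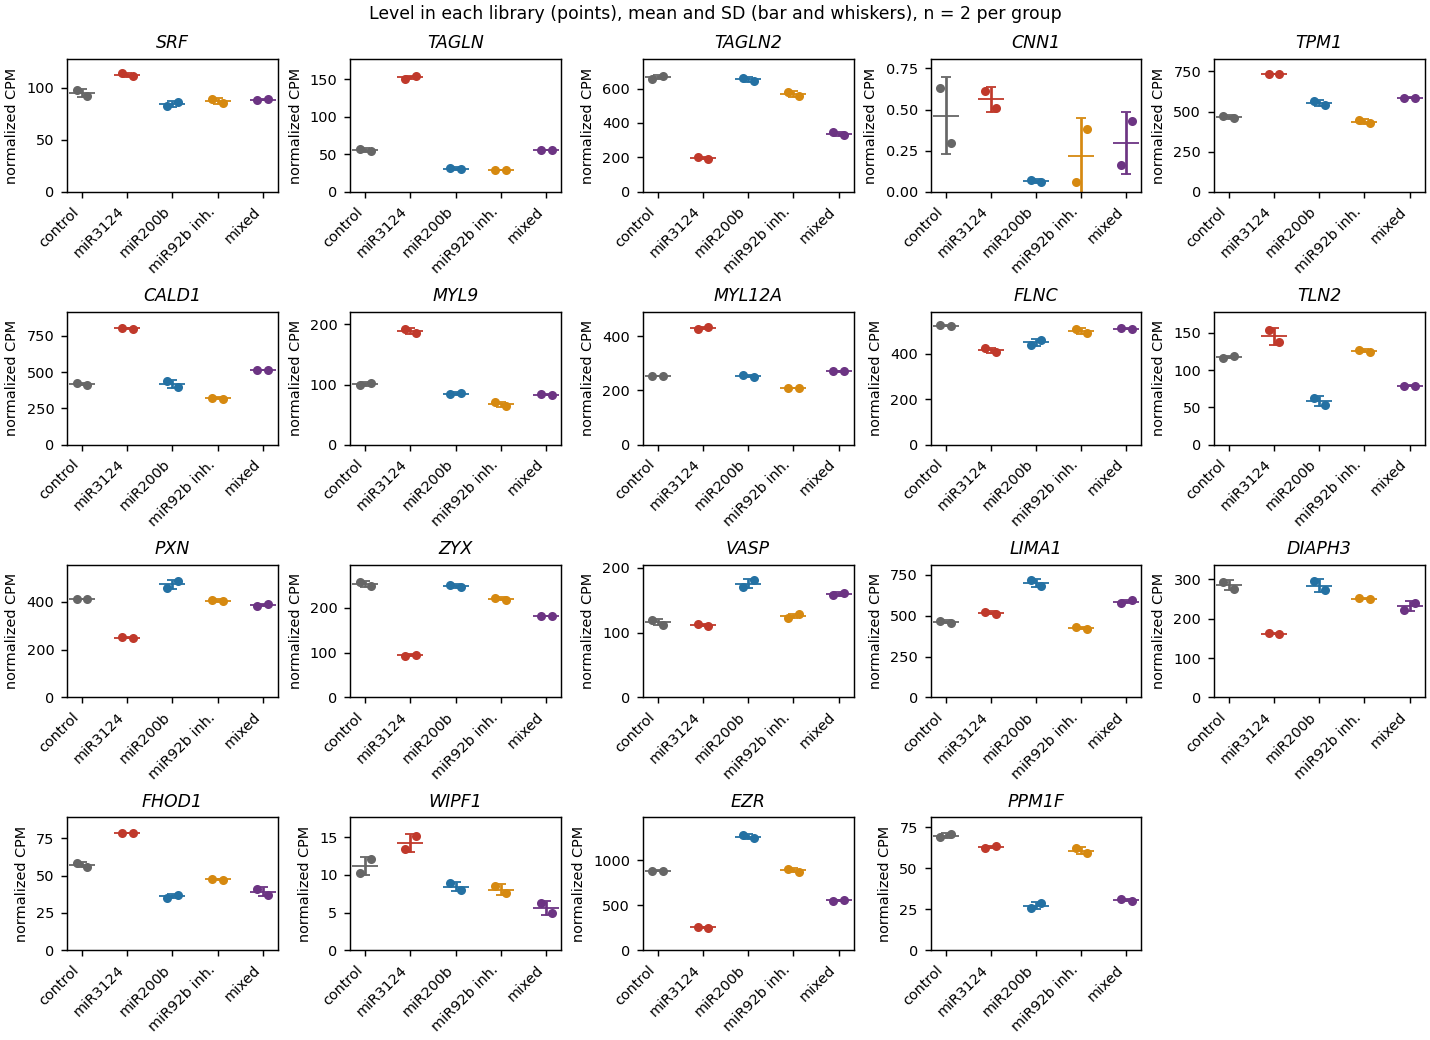
Normalized CPM of 19 genes in each library (points) with the group mean (bar) and SD (whiskers), n = 2 per group. TAGLN, CALD1, MYL9 and MYL12A are highest in miR3124_mimic, where TAGLN2, ZYX and EZR are lowest, and PPM1F and TLN2 are low in miR200b_mimic and in the mixed group.

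Myosin II is the motor of the contractile bundle, with heavy chains such as MYH9 and MYH10 and light chains that are essential (MYL6) or regulatory (MYL9, MYL12A, MYL12B). Of these 6 genes, 3 rose and 2 fell in miR3124_mimic, 1 rose and 3 fell in miR200b_mimic, 0 rose and 4 fell in miR92b_inhibitor, and 3 rose and 3 fell in the mixed group. MYL9 (chr20:36541484-36551447) was at 98.7 and 103 CPM with miRcontrol, 193 and 185 with miR3124_mimic, 83.5 and 86.6 with miR200b_mimic, 70.3 and 64 with miR92b_inhibitor and 84.5 and 82.3 in the mixed group. Its miR3124_mimic libraries lay above and its miR92b_inhibitor libraries below all others. It rose 1.87-fold in miR3124_mimic (log2 0.91 ± 0.046, adjusted p = 8.53e-22) and fell in miR92b_inhibitor (-0.59 ± 0.052, adjusted p = 7.89e-13), in miR200b_mimic (-0.24 ± 0.051, adjusted p = 0.000117) and in the mixed group (-0.27 ± 0.05, adjusted p = 1.26e-05).

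The neighbouring genes MYL12A (chr18:3247481-3256236) and MYL12B (chr18:3261479-3278431) encode near-identical light chains, so that reads may have been split between them and their separate values are uncertain. MYL12A was at 254 and 254 CPM with miRcontrol, 427 and 432 with miR3124_mimic, 257 and 250.3 with miR200b_mimic, 209 and 210.3 with miR92b_inhibitor and 272 and 269.7 in the mixed group. It rose in miR3124_mimic (0.76 ± 0.036 on the log2 scale, adjusted p = 8.08e-23), where MYL12B fell (-0.19 ± 0.036, adjusted p = 1.68e-05). MYL12B rose in miR200b_mimic (0.35 ± 0.036, adjusted p = 2.49e-11), where MYL12A did not pass the test (-0.0024 ± 0.038). MYL12A took 40.0% to 41.1% of their summed level per kilobase in miRcontrol, 56.8% to 57.0% in miR3124_mimic and 34.7% to 35.0% in miR200b_mimic.

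The heavy chain MYH9 fell in all 4 groups, with log2 fold changes of -0.54 with miR3124_mimic, -0.14 with miR200b_mimic, -0.30 with miR92b_inhibitor and -0.38 in the mixed group. MYH10 fell in 3 of the 4 and stood at -0.0014 with miR3124_mimic. The light chain MYL6 was called higher in miR3124_mimic, with a mean of 997 CPM against 807 in miRcontrol. In miR3124_mimic, the light chains MYL6, MYL9 and MYL12A therefore rose while MYL12B and the heavy chain MYH9 fell.

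The filamins cross-link actin into networks. FLNC (chr7:128830377-128859274) was at 523 and 520.0 CPM with miRcontrol, 423 and 405 with miR3124_mimic, 439 and 461 with miR200b_mimic, 507 and 491 with miR92b_inhibitor and 513 and 507 in the mixed group. It fell in miR3124_mimic (-0.33 ± 0.036 on the log2 scale, adjusted p = 6.14e-11) and in miR200b_mimic (-0.21 ± 0.036, adjusted p = 3.35e-06). FLNA rose with miR3124_mimic (0.28) and fell in miR92b_inhibitor (-0.26), where FLNC did not pass the test (-0.06).

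**Figure D4:**
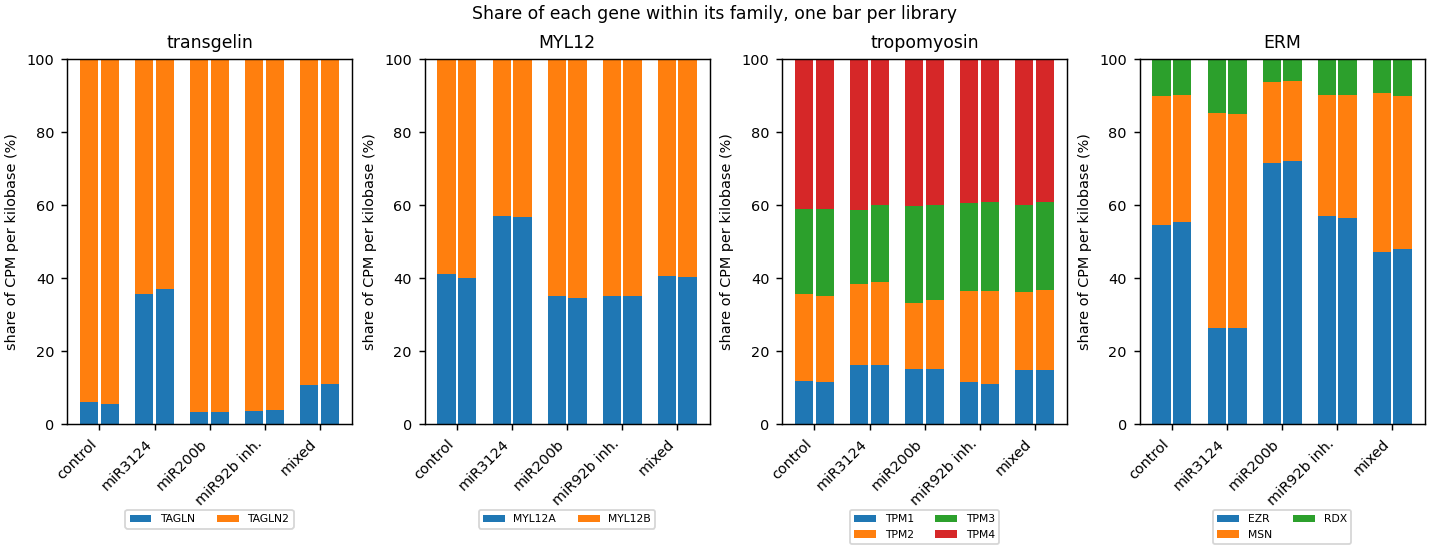
Share (%) of each gene in the summed CPM per kilobase of its family, with 1 bar per library and 2 libraries per group, for the transgelins, the MYL12 pair, the tropomyosins and the ERM genes. TAGLN and MYL12A take more, and EZR less, of their families in miR3124_mimic, while EZR takes 71.6% to 72.1% in miR200b_mimic.

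Of the 11 adhesion plaque genes, 5 rose and 3 fell in miR3124_mimic, 6 rose and 4 fell in miR200b_mimic, 1 rose and 7 fell in miR92b_inhibitor, and 2 rose and 6 fell in the mixed group. The 27.3% that fell in miR3124_mimic lay near the 25.3% of all tested genes. ZYX (chr7:143381080-143391111), a LIM protein that reports tension, was at 258 and 247 CPM with miRcontrol, 92.7 and 95.3 with miR3124_mimic, 251 and 246 with miR200b_mimic, 222 and 217 with miR92b_inhibitor and 182 and 181 in the mixed group. It fell 2.69-fold in miR3124_mimic (log2 -1.43 ± 0.043, adjusted p = 1.25e-30) and less in the mixed group (-0.48 ± 0.039, adjusted p = 3.36e-14) and in miR92b_inhibitor (-0.20 ± 0.039, adjusted p = 4.14e-05), while 1 miR200b_mimic library lay within the range of miRcontrol. The scaffold gene PXN (chr12:120210439-120265771) was at 411 and 411 CPM with miRcontrol, 252 and 248 with miR3124_mimic, 459 and 486 with miR200b_mimic, 409 and 401 with miR92b_inhibitor and 383 and 389 in the mixed group. It fell in miR3124_mimic (-0.72 ± 0.038, adjusted p = 2.19e-21) and rose in miR200b_mimic (0.20 ± 0.036, adjusted p = 9.78e-06). ZYX overlaps EPHA1, and PXN overlaps PXN-AS1, on the opposite strand.

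The talins link integrins to actin. TLN2 (chr15:62390526-62844631) was at 117 and 119 CPM with miRcontrol, 153 and 137 with miR3124_mimic, 63.1 and 53.8 with miR200b_mimic, 127 and 124 with miR92b_inhibitor and 79.2 and 78.6 in the mixed group. Its miR200b_mimic libraries were the lowest and the mixed libraries came next. The falls were -1.02 ± 0.058 (adjusted p = 7.65e-20) and -0.58 ± 0.054 (adjusted p = 1.35e-12) on the log2 scale, and TLN2 rose in miR3124_mimic (0.30 ± 0.051, adjusted p = 1.89e-06). TLN1, the more abundant talin, had the same signs in these groups (-0.55, -0.20 and 0.40, all called), and it overlaps CREB3 on the opposite strand.

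VASP (chr19:45506579-45526983), which speeds filament growth, and LIMA1 (chr12:50175788-50283546), which stabilizes bundles, rose in miR200b_mimic. VASP was at 119 and 113 CPM with miRcontrol, 113 and 110.4 with miR3124_mimic, 171 and 181 with miR200b_mimic, 123 and 128 with miR92b_inhibitor and 158 and 162 in the mixed group. LIMA1 was at 469 and 456, 523 and 513, 716 and 682, 428 and 418 and 579 and 593 CPM in the same order. For both genes the miR200b_mimic libraries were the highest and the mixed libraries the next highest.

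The rises in miR200b_mimic were 0.60 ± 0.045 for VASP (adjusted p = 1.05e-15) and 0.60 ± 0.036 for LIMA1 (adjusted p = 4.42e-19) on the log2 scale. VASP was the 1 gene called higher in miR92b_inhibitor (0.12 ± 0.046, adjusted p = 0.0388), and this call was lost without miRcontrol replicate 2 (log2 0.08, adjusted p = 0.358), without miR92b_inhibitor replicate 2 (0.09, adjusted p = 0.276) and with DESeq2.

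The remaining plaque genes VCL, ENAH, PDLIM5, PDLIM7 and LASP1 had log2 fold changes between -0.43 and 0.45. VCL, the vinculin gene, rose in miR200b_mimic (0.45) and fell in miR3124_mimic (-0.39) and miR92b_inhibitor (-0.36).

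Of the 8 genes that start or branch filaments, 4 rose and 2 fell in miR3124_mimic, 2 rose and 3 fell in miR200b_mimic, 0 rose and 6 fell in miR92b_inhibitor, and 1 rose and 5 fell in the mixed group. The 25% that fell in miR3124_mimic lay near the 25.3% of all tested genes. DIAPH3 (chr13:59665583-60163987), a formin, was at 294 and 275 CPM with miRcontrol, 162 and 161 with miR3124_mimic, 294 and 272 with miR200b_mimic, 252 and 249.9 with miR92b_inhibitor and 223 and 240.2 in the mixed group. It fell 1.76-fold in miR3124_mimic (log2 -0.82 ± 0.044, adjusted p = 4.96e-21), where the formin DIAPH1 was at -0.11, and it did not pass the test in miR200b_mimic (-0.01 ± 0.042), where DIAPH1 rose by 0.39. DIAPH2 was called in none of the 4 comparisons.

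FHOD1 (chr16:67229387-67247658), a formin of stress fibres, was at 58.7 and 56 CPM with miRcontrol, 78.7 and 78.4 with miR3124_mimic, 35.1 and 37.3 with miR200b_mimic, 47.5 and 47.4 with miR92b_inhibitor and 41.4 and 37 in the mixed group. Its miR3124_mimic libraries were the highest, and the miR200b_mimic and mixed libraries, which overlapped, the lowest. The log2 fold changes were 0.45 ± 0.058 (adjusted p = 5.18e-09) in miR3124_mimic, -0.66 ± 0.066 (adjusted p = 9.74e-12) in miR200b_mimic and -0.55 ± 0.063 (adjusted p = 4.44e-10) in the mixed group. FHOD1 overlaps SLC9A5 on the opposite strand.

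WIPF1 (chr2:174559572-174682916), which stabilizes the nucleation factor WASP, was among the least abundant of the genes. It was at 10.3 and 12.1 CPM with miRcontrol, 13.4 and 15.1 with miR3124_mimic, 8.9 and 8 with miR200b_mimic, 8.52 and 7.55 with miR92b_inhibitor and 6.3 and 4.95 in the mixed group, where both libraries were below all others. The fall in the mixed group was -0.99 ± 0.14 on the log2 scale (adjusted p = 1.6e-07). The smaller changes in miR3124_mimic (0.36), miR200b_mimic (-0.41) and miR92b_inhibitor (-0.48) each lost their call when 1 library was left out. This was so in miR3124_mimic without miRcontrol replicate 1 (0.24) or miR3124_mimic replicate 2 (0.26), in miR200b_mimic without miRcontrol replicate 2 (-0.29) or miR200b_mimic replicate 2 (-0.33), and in miR92b_inhibitor without miRcontrol replicate 2 (-0.36) or miR92b_inhibitor replicate 2 (-0.39).

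The ERM genes showed opposite behaviour of EZR in the 2 mimics. EZR (chr6:158765741-158819412), the ezrin of epithelial microvilli, was at 880.3 and 888 CPM with miRcontrol, 259 and 253 with miR3124_mimic, 1285 and 1245 with miR200b_mimic, 908 and 876 with miR92b_inhibitor and 549 and 559.6 in the mixed group. It fell 3.46-fold in miR3124_mimic (log2 -1.79 ± 0.036, adjusted p = 2.15e-37), fell in the mixed group (-0.67 ± 0.034, adjusted p = 1.11e-21) and rose in miR200b_mimic (0.52 ± 0.034, adjusted p = 1e-17). In miR92b_inhibitor it did not pass the test (0.01 ± 0.034). EZR overlaps EZR-AS1 on the opposite strand.

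MSN (moesin) and RDX (radixin) fell in miR200b_mimic with log2 fold changes of -0.55 ± 0.035 (adjusted p = 8.53e-18) and -0.56 ± 0.044 (adjusted p = 6.09e-15). EZR thus took 54.6% to 55.3% of the summed ERM level per kilobase in miRcontrol, 26.3% in both miR3124_mimic libraries, 71.6% to 72.1% in miR200b_mimic and 47.1% to 47.9% in the mixed group. Markers moved in the same libraries. The summed CPM of the 7 epithelial markers was 2220 to 2268 in miRcontrol, 2774 to 2781 in miR3124_mimic, 4188 to 4270 in miR200b_mimic and 4081 to 4109 in the mixed group, and the 5 mesenchymal markers summed to 7377 to 7397, 4439 to 4567, 4606 to 4661 and 4977 to 4996 CPM. The members of both sums moved unequally. EPCAM was at 0.119 to 0.458 CPM in miRcontrol, 10.1 to 10.2 in miR200b_mimic and 5.27 to 5.7 in the mixed group. CDH1 was at 0.119 to 0.172, 9.03 to 10.9 and 1.94 to 2.54 CPM in the same groups. In miR3124_mimic EPCAM was at most at 0.41 CPM and CDH1 at most at 0.396. KRT19 was at 7.94 to 8.47 CPM in miRcontrol and 0.615 to 0.905 in miR3124_mimic. It was at 13.8 to 15.1 CPM in miR200b_mimic and 2.49 to 2.74 in the mixed group. In miR3124_mimic KRT7 was at 825 to 830 CPM against 761 to 826 in miRcontrol. KRT8 was at 1135 to 1151 CPM there against 814, and KRT18 at 803 to 808 against 619 to 638. In miR3124_mimic VIM was at 799 to 827 CPM, against 3707 to 3894 in miRcontrol, while FN1 was at 3330 to 3436 against 3181 to 3347. In miR200b_mimic VIM was at 2972 to 2992 and FN1 at 1369 to 1444 CPM. Their part in the results was not tested.

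PPM1F (chr22:21919420-21952837), a phosphatase that acts on the kinases PAK and CaMKII, had the largest fall in miR200b_mimic among the genes above 1 CPM. It was at 68.9 and 70.8 CPM with miRcontrol, 62.3 and 63.4 with miR3124_mimic, 25.7 and 28.7 with miR200b_mimic, 62.3 and 59 with miR92b_inhibitor and 30.9 and 30.2 in the mixed group. It fell 2.55-fold in miR200b_mimic (log2 -1.35 ± 0.067, adjusted p = 4.11e-22) and 2.29-fold in the mixed group (-1.19 ± 0.063, adjusted p = 5.68e-21). The 4 libraries of these groups lay below all others.

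The seed word was then set beside these changes. Of the 12 genes with CAGTATT in the 3′UTR, 10 fell and 1 (LIMA1) rose in miR200b_mimic, with a median log2 fold change of -0.41. CALD1 held the word and did not pass the test. Of the 30 genes without it, 10 fell and 11 rose (median -0.02). Over all tested genes, 33.1% of those with the word fell and 21% rose, against 18.4% and 25.4% of those without it. In miR3124_mimic, to which this word does not belong, 3 of the same 12 genes fell and 8 rose, and over all tested genes with the word 25.9% fell and 35.9% rose. In miR92b_inhibitor 9 of the 12 fell (75%) and 0 rose, as 63.3% of the 30 genes without the word fell, while 20.9% of all tested genes with the word fell and 20.7% rose.

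**Figure D5:**
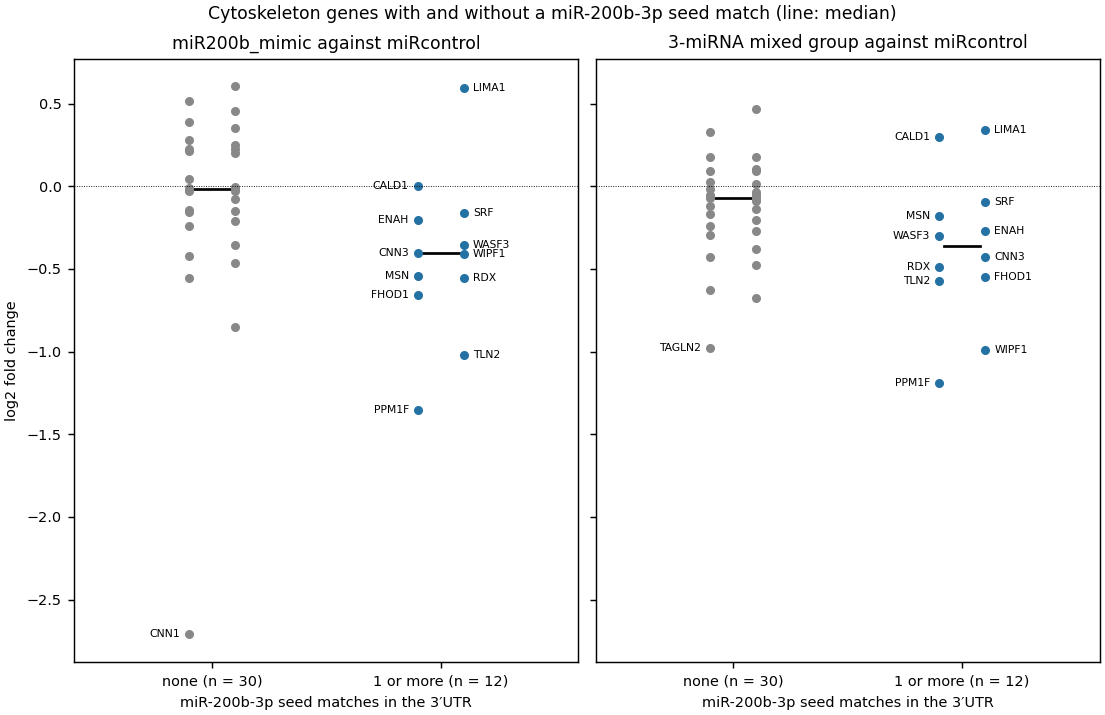
Log2 fold change against miRcontrol of the cytoskeleton genes without (grey) and with (blue, named) a miR-200b-3p seed match in the 3′UTR, in miR200b_mimic and in the 3-miRNA mixed group, with medians as lines. In miR200b_mimic the medians are -0.02 for the 30 genes without and -0.41 for the 12 genes with a match.

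For miR-3124-5p the genes held no seed word, which says little for 42 genes, as only 0.621% of all genes held it. In miR3124_mimic, 20 of the 42 rose (47.6%) and 13 fell (31%), against 25.7% and 25.3% of all tested genes. Why they changed was not tested. Among all genes, 46 of the 76 with the word fell (60.5%), against 28.1% of those without it. In miR92b_inhibitor, the genes with a word of miR-92b are MYH9 (-0.30), VCL (-0.36), TPM4 (-0.10) and DIAPH2 (-0.05). Of the 4 genes with the miR-92b-3p word 3 fell (75%), against 65.8% of the 38 without it, and of the 3 with the miR-92b-5p word 2 fell (66.7%), against 66.7% of the 39 without it. Over all tested genes, 21.9% of those with the miR-92b-3p word fell and 17.9% rose, against 20.8% and 19.7% of those without it. Of those with the miR-92b-5p word 31.6% fell and 13.1% rose, against 20.4% and 19.8% of those without it.

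Opposite calls in the 2 mimics were frequent. Of 25 genes called in both, 11 rose in miR3124_mimic and fell in miR200b_mimic, and 5 (MYL12B, VCL, PXN, DIAPH1 and EZR) did the reverse. The first were SRF, TAGLN, TPM2, TPM4, MYL9, TLN1, TLN2, ENAH, FHOD1, WASF3 and WIPF1. CNN2, TPM1, LIMA1 and LASP1 rose in both, and CNN3, MYH9, FLNC, RDX and PPM1F fell in both. Over all genes, 3859 were called in both, of which 780 rose in miR3124_mimic and fell in miR200b_mimic and 804 did the reverse. Both comparisons share the miRcontrol libraries.

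The mixed group was next compared directly with each single transfection. Against miR3124_mimic, 12 of the 42 genes were higher and 24 lower (25.3% and 23.8% of all genes). Against miR200b_mimic, 11 were higher and 16 lower (18.2% and 20.4%), and against miR92b_inhibitor, 13 were higher and 15 lower (19.7% and 19.9%). The fold change of 36 of the 42 genes (85.7%) lay within the range of the 3 single transfections, as it did for 75.8% of all genes.

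TAGLN in the mixed group was lower than in miR3124_mimic (-1.46 ± 0.051 on the log2 scale, adjusted p = 1.04e-27) and higher than in miR200b_mimic (0.83 ± 0.064, adjusted p = 6.22e-15) and miR92b_inhibitor (0.93 ± 0.063, adjusted p = 6.14e-17). EZR was higher than in miR3124_mimic (1.12 ± 0.036, adjusted p = 7.49e-29) and lower than in miR200b_mimic (-1.19 ± 0.034, adjusted p = 9.76e-31). PPM1F was lower than in miR3124_mimic (-1.04 ± 0.065, adjusted p = 1.6e-18), and its difference from miR200b_mimic did not pass the test (0.16 ± 0.075, adjusted p = 0.0868).

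WIPF1 was the 1 gene of the 42 that was lower in the mixed group than in all 3 single transfections, with values of -1.35 ± 0.14 (adjusted p = 2.69e-11), -0.58 ± 0.15 (adjusted p = 0.00222) and -0.51 ± 0.15 (adjusted p = 0.00572) on the log2 scale against miR3124_mimic, miR200b_mimic and miR92b_inhibitor. None of the 42 was called higher than in all 3. The same calls were not counted over all tested genes. By fold change alone, 5 of the 42 (11.9%) lay below all 3 single transfections and 1 (2.38%) above. Over all genes these shares were 12.8% and 11.4%. Values of single genes in these direct comparisons were not recomputed with a library left out.

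Other genes of the pathway were read from 2 lists. Over all tested genes, 25.7% rose and 25.3% fell in miR3124_mimic, and 21.4% and 19.1% in miR200b_mimic. In miR92b_inhibitor these shares were 17.5% and 18.2%, and in the mixed group 21.5% and 21.1%. Of the MRTF cofactors and other SRF targets (21 tested of 26 in the files), 8 rose and 9 fell in miR3124_mimic, 7 rose and 8 fell in miR200b_mimic, 3 rose and 12 fell in miR92b_inhibitor, and 5 rose and 7 fell in the mixed group. The largest falls in miR3124_mimic were ACTN1, the alpha-actinin that bundles stress fibres, from a mean of 1197 to 213 CPM (log2 -2.49 ± 0.039, adjusted p = 6.47e-42), and ACTB, beta-actin itself, from 7149.6 to 1686 CPM (-2.08 ± 0.032, adjusted p = 2.35e-42). Both also fell in the mixed group (-1.94 ± 0.038, adjusted p = 1.89e-37, and -0.91 ± 0.03, adjusted p = 1.65e-28). The largest rises in miR3124_mimic were the early-response gene FOS (1.67, from 0.702 to 2.24 CPM) and the matricellular gene CTGF (1.66, from 260.3 to 821).

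In miR200b_mimic, the largest called changes of this list among genes with a mean of 1 CPM or more were the rises of ANKRD1 (1.36) and FOS (1.34) and the falls of FHL1 (-0.45) and TGFB1I1 (-0.43). In miR92b_inhibitor, EGR1 (2.24) and FOS (1.83) rose and SMTN (-0.44) and CSRP2 (-0.43) fell, and in the mixed group EGR1 (2.43) and FOS (2.64) rose.

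Of the other focal adhesion plaque genes (39 tested of 40), 19 rose and 14 fell in miR3124_mimic, 16 rose and 11 fell in miR200b_mimic, 5 rose and 16 fell in miR92b_inhibitor, and 14 rose and 15 fell in the mixed group. The shares of all tested genes are those given for the first list. In miR92b_inhibitor, for example, 12.8% of the plaque list rose and 41% fell, against 17.5% and 18.2%. The integrin genes ITGB3 (1.49) and ITGA5 (1.12) rose most in miR3124_mimic, and the palladin gene PALLD (-1.62) and LIMS2 (-1.11) fell most. The collagen receptor subunit ITGA2 rose from a mean of 82.9 CPM in miRcontrol to 317 with miR200b_mimic (1.93 ± 0.047 on the log2 scale, adjusted p = 5.23e-34) and 327 in the mixed group (1.98 ± 0.046, adjusted p = 1.88e-34). Among the genes with a mean of 1 CPM or more, FERMT1 (0.86) rose next most in miR200b_mimic, where KANK2 (-0.77) and PALLD (-0.65) fell most. By the same limit, LPXN (0.57) and ITGA2 (0.48) rose and ITGB3 (-0.62) and TNS2 (-0.60) fell most in miR92b_inhibitor, and KANK2 (-0.77) and LIMS2 (-0.74) fell in the mixed group.

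The promoters were searched for the CArG box, the SRF binding motif, on both strands from 250 bases before to 50 after the RefSeq gene start (GRCh38.p14). It lay in 4 of the 62 promoter windows of the 39 genes with an entry (6.45%). The share was 1.29% of 35116 windows of all genes and 1.09% of 15154 windows of tested genes. SRF is among the genes with a box and switches on many genes of this apparatus, so that the genes are no neutral sample for this motif. The boxes are shown since the same factor heads the list of genes. TAGLN, MYL9 and CTTN have no entry.
SRF, chr6:43171239-43171248, plus strand: CCATATAAGG
SRF, chr6:43171259-43171268, plus strand: CCATAAAAGG
CNN2, chr19:1026519-1026528, plus strand: CCTTATAAGG
TPM4, chr19:16067365-16067374, plus strand: CCAAATAAGG
FLNA, chrX:154374719-154374728, minus strand: CCAATTAAGG

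These 4 genes all rose in miR3124_mimic, by 0.24 (SRF), 0.09 (CNN2), 0.17 (TPM4) and 0.28 (FLNA) on the log2 scale, as did 20 of the 42 genes and 25.7% of all genes. All 4 fell in miR92b_inhibitor (-0.13, -0.42, -0.10 and -0.26), as did 28 of the 42 and 18.2% of all genes. In miR200b_mimic SRF (-0.16) and TPM4 (-0.15) fell, CNN2 rose (0.28) and FLNA did not pass the test (-0.03). In the mixed group CNN2 rose (0.18), and SRF (-0.10), TPM4 (-0.06) and FLNA (-0.07) did not pass the test. A box is a match of letters, and binding was not measured.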

How the data were processed

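Poly(A) RNA of BEAS2B cells was sequenced, with 2 libraries for each of 5 groups named by the labels. The authors checked reads with FastQC, trimmed them with FASTX_Trimmer and BBMap and mapped them with TopHat, and the submitters' processing notes name GRCh38. The counting tool, annotation and strand setting are not given in the sources used here. The files hold unnormalized read counts by gene symbol, as deposited. Repeated symbols (5771 of 58173 rows) were added up. Totals of 13587666 to 18503890 counts set the precision.

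Genes were filtered with filterByExpr and scaled by RLE in edgeR 4.0.16 (R 4.3.3), and one quasi-likelihood model without covariates was fitted to the 10 libraries. P-values were Benjamini-Hochberg adjusted over 14884 genes. The SE is the log2 fold change divided by the square root of the F statistic. The 42 genes and the gene lists were chosen with earlier results of these data known. Genes with an adjusted p below 0.05 and at least a 1.5-fold change against miRcontrol were given by library, besides SRF and, for a role without such a gene, its largest change. Of each list, the 2 largest called rises and falls at a mean of 1 CPM or more were named. Another gene list and a gene that met this rule are not reported here. Other genes given with values were chosen after their values were seen. Lengths and 3′UTRs came from GENCODE v29 (GRCh38). The fit was tested on simulated data. The alternatives were TMM, library totals, DESeq2 1.42.0, a fit of the 2 groups compared, other filters, symbols listed once, a replicate block, each library left out, and any coding transcript for the seed words.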

Additional observations from a re-analysis of the deposited data

How the results depend on the processing

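The number of genes called higher in miR92b_inhibitor against miRcontrol, 1 in the reported fit, was 0 with DESeq2 and with no filter on low counts, and between 0 and 1 when a library was left out (0 without miRcontrol replicate 2 or miR92b_inhibitor replicate 2). The other counts of called genes stayed within 1.5 times their reported value under every alternative run. Of 902 recomputed fold changes of the 19 genes given by library, 858 kept their side of the threshold, 44 lost their call and 0 reversed. Calls lost beyond those given in the report were small. They were TPM1 in miR92b_inhibitor without miRcontrol replicate 1 (-0.07) or miR92b_inhibitor replicate 2 (-0.06), LIMA1 there without the same libraries (-0.11 each), PPM1F there without miR92b_inhibitor replicate 2 (-0.16), PPM1F in miR3124_mimic without miRcontrol replicate 2 (-0.13) or either miR3124_mimic library (-0.14 and -0.17), and PXN (-0.10 to -0.08) and MYL12A (0.09 to 0.10) in the mixed group without any 1 library of either group. Under the other settings, the call of SRF in miR92b_inhibitor was lost with TMM, DESeq2 and no filter, TPM1 there with TMM, VASP there with DESeq2 and no filter, PPM1F in miR3124_mimic with library totals and DESeq2, WIPF1 in both mimics with DESeq2, and in the mixed group PXN with TMM and library totals and MYL12A with no filter. The cause was not tested. DESeq2 gave no adjusted p for CNN1. With a replicate block, 0 of the 42 genes changed their call in the 7 comparisons (20 higher and 13 lower in miR3124_mimic, for example), while the number called over all genes moved from 7594 to 7609 there. Deviations of libraries with the same number correlated between groups at -0.0296 to 0.0538 over 14884 genes. The labels give only a number, and whether libraries with the same number were made together cannot be told from these values. With any coding transcript, 13 genes held the miR-200b-3p word and 11 of them fell. CNN1 and WIPF1 had the fewest counts of the genes given by library, and whether depth or the spread between libraries limits them was not tested.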
